A study of Mus musculus with 6 samples.

Results

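The genes described here are 10 calcium-handling genes linked to repair of the plasma membrane: the annexins Anxa1, Anxa2, Anxa4, Anxa5 and Anxa6, the S100 genes S100a4, S100a6, S100a10 and S100a11, and Dysf, which encodes dysferlin. They were chosen by name for what their proteins do, with earlier results of these data known, and make up 10 of the 41709 genes of the expression table. The table came from RNA sequencing of 6 tibialis anterior muscles of male C57BL/6J mice. Each muscle was injected with a pCMV6 plasmid, in which a CMV promoter drives 3xFlag-tagged mouse Lrpprc, and was electroporated after hyaluronidase treatment. In 3 muscles the plasmid encoded the wild-type protein (LrpprcWT) and in 3 contralateral muscles the P27A mutant (LrpprcP27A), and all were collected 14 days later. Both groups therefore carried the plasmid, the injection, the current and the endogenous Lrpprc of the mouse, and no untreated muscle was analysed here. The methods describe electroporation in mice of 4 and of 27 months, and which age these 6 muscles came from is not given in the sources used here. The study describes Lrpprc as a protein of mitochondria and nucleus that binds mRNA and also acts as a coactivator of transcription. The comparison asks how the transcripts differ between the LrpprcP27A and the LrpprcWT muscles.

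Annexins are cytosolic proteins that bind acidic membrane lipids when calcium rises, as it does where a muscle fibre's membrane tears. S100 proteins are small EF-hand calcium sensors, and several of them dock onto an annexin: S100a10 holds Anxa2 in a tetramer and S100a11 binds Anxa1. Dysferlin is a membrane-anchored protein with C2 domains that is needed for patching of the fibre membrane and whose loss causes limb-girdle muscular dystrophy. Annexins and S100 proteins are also made in quantity by fibroblasts, macrophages and endothelial cells, whereas dysferlin in muscle is mainly a product of the fibre.

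The members lie on 5 chromosomes of the mouse genome build GRCm39. All 4 S100 members are on chromosome 3, S100a4 at chr3:90511074-90513354, S100a6 at chr3:90520140-90535843, S100a11 at chr3:93414382-93435293 and S100a10 at chr3:93462213-93474510, each on the plus strand. Anxa5 is on the same chromosome, at chr3:36503072-36530126 on the minus strand. Anxa1 is at chr19:20350792-20368374 (minus), Anxa2 at chr9:69360542-69399077 (plus), Anxa4 at chr6:86713675-86771064 (minus), Anxa6 at chr11:54869654-54924305 (minus) and Dysf at chr6:83985345-84188042 (plus).

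The 250 bases before the canonical GENCODE start are shown for 4 members, because they hold the motifs that the members share least with other promoters (S100a4, Anxa2 and S100a11) or, for Dysf, because it is the member whose level as deposited differed least between the groups. Each is written on the gene's own strand, 5′ to 3′, and all 4 lie on the plus strand, S100a4 at chr3:90510825-90511074, Anxa2 at chr9:69360652-69360901, S100a11 at chr3:93427427-93427676 and Dysf at chr6:83985095-83985344. For Anxa2 and S100a11 the annotation has other transcripts that start farther upstream, so these windows lie within the gene's span. Capitals mark a TATA box (TATAAA), a GC box (GGGCGG) or an AP-1 site (TGANTCA), each searched on both strands.
S100a4: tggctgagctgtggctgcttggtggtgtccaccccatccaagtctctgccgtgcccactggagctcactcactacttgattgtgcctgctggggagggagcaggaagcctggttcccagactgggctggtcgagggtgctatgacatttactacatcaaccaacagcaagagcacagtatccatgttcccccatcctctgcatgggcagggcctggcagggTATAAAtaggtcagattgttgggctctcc
Anxa2: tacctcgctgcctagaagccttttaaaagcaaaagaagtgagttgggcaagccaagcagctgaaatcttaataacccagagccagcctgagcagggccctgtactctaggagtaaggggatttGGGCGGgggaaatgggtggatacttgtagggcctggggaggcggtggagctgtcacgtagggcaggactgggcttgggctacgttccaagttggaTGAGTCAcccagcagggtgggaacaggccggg
S100a11: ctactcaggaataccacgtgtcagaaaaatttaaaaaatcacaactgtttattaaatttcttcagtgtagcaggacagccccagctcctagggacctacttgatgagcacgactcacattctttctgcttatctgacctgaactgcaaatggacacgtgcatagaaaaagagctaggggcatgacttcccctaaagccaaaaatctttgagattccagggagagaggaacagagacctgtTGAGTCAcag
Dysf: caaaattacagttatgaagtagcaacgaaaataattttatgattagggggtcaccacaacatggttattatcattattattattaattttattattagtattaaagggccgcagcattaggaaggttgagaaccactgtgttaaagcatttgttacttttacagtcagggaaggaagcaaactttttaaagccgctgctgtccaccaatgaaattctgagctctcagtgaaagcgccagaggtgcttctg

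Among the 10 members only S100a4 had the TATA box letters, 29 to 24 bases before its start, against 11.9% of 21738 mouse promoters of the same length. An AP-1 match was present in Anxa2, 32 to 26 bases before the start, and in S100a11, 10 to 4 bases before it, against 6.18% of all promoters. A GC box occurred in Anxa2 and, in overlapping copies, in Anxa6, against 36.3% of all promoters. The E-box letters CANNTG, not capitalised, occurred in 5 of 10 members against 64.8% of all, and in S100a11 there were 4 of them. The TEAD letters GGAATG occurred in 12.1% of all promoters and a CArG box in 1.4%, and neither was found in a member in this window. The shown Dysf sequence was the poorest in G and C of these 4 at 36.8%, against 56.8% for both S100a4 and Anxa2, 43.6% for S100a11 and a median of 53.2% over all promoters. These matches describe letters and were not tested as binding sites.

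Values are in TPM, which scale reads to transcript length and to a fixed total per library, so that they can be set side by side between genes. Between 17774 and 19053 genes were above 0 in a library. Muscle fibre markers (Acta1, Ckm, Myh4, Myh1, Tnnt3 and Ttn) summed to 86840–93300 TPM with LrpprcWT and to 83140–92570 TPM with LrpprcP27A, and none of the 6 passed the test described below. With the replicate block, also described below, 1 of the 6 fell, against 48.4% of all genes, and 1 rose, against 2.69%. After the median-of-ratios scaling introduced below, all 6 had a log2 fold change above 0 (median 0.53). On that scale 1 of them rose, against 6.83% of all genes, and 4 rose with the block added, against 17.2%. Lrpprc itself, counted from plasmid and endogenous gene together, was at 35.1, 37.0 and 75.2 TPM in LrpprcWT replicates 1 to 3 and at 26.9, 29.7 and 26.0 TPM in LrpprcP27A replicates 1 to 3 (log2 fold change -0.72, limma adjusted p = 0.0652). Every LrpprcP27A library was below the lowest LrpprcWT library, as for 47.6% of all tested genes. The Lrpprc level thus differed alongside the variant, and its part in other changes was not tested. The count does not separate mutant from wild-type transcripts. Transcripts of the mitochondrial genome took 36.0–45.2% of the TPM with LrpprcWT and 44.2–46.1% with LrpprcP27A, and ribosomal RNA took 0.888–1.76% and 3.70–4.44%. Within the groups, LrpprcWT replicate 2 was the lowest LrpprcWT library for all 10 members, and LrpprcP27A replicate 1 was the highest LrpprcP27A library for 8 of them.

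Most annexin and S100 transcripts were lower in the LrpprcP27A muscles, and dysferlin did not pass the test. Of the 10 members, 8 fell (Anxa1, Anxa2, Anxa4, Anxa5, Anxa6, S100a4, S100a10 and S100a11) and none rose at a Benjamini-Hochberg adjusted p under 0.05 with limma on log2(TPM + 1). Over all 11611 genes tested, 23.3% fell and 1.34% rose. At an unadjusted p under 0.05, 9 members were lower, against 44.2% of all genes, and 0 higher, against 2.59%. The same 8 members had no overlap between the groups, with every LrpprcP27A library below every LrpprcWT library, as had 47.6% of all tested genes, and no member lay wholly above, as had 3.51%. The median log2 fold change of the members was -1.18, against -0.32 over all tested genes, and 9 of the 10 lay below that general median. S100a6 (adjusted p = 0.0558) and Dysf (adjusted p = 0.132) did not pass. Since the labels give the muscles shared replicate numbers and the muscles are contralateral, a fit with the replicate number as a block was also made, and there 9 members fell, S100a6 included, against 48.4% of all genes, and none rose, against 2.69%.

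**Figure D1:**
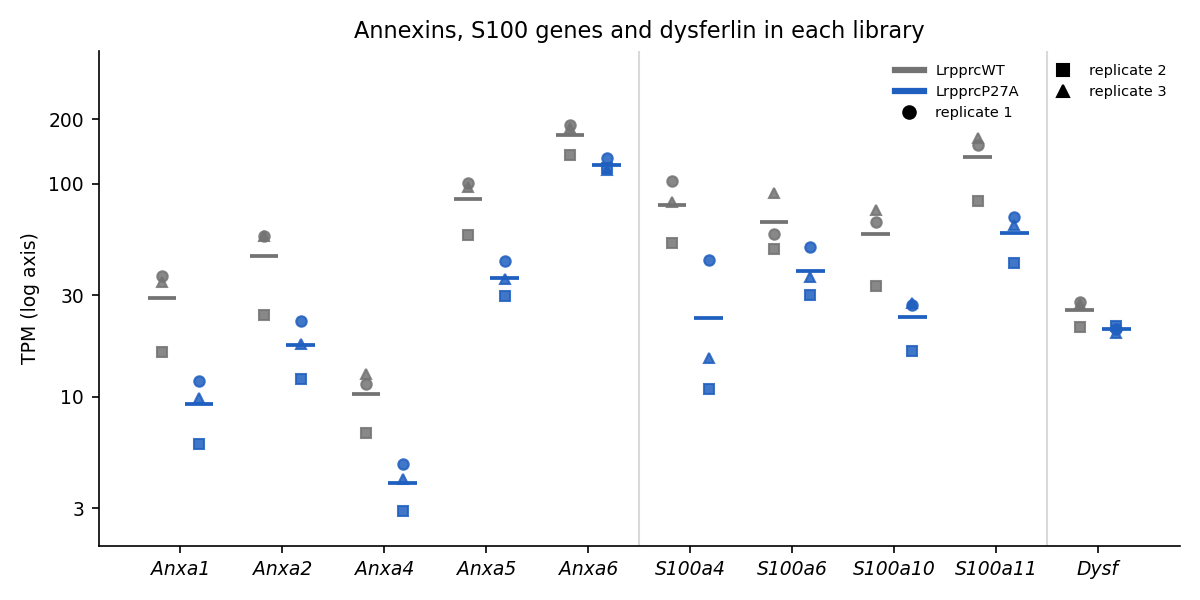
TPM (log axis) of each member in every library, with LrpprcWT in grey, LrpprcP27A in blue, a circle, square or triangle for replicate 1, 2 or 3, and a horizontal bar at the group mean. The groups are apart for 8 members, and for S100a6 and Dysf they overlap.

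Because most genes shifted downward, the levels were also rescaled by the median of ratios, which moves the median log2 fold change of all genes from -0.32 to 0.036. On that scale Anxa1, Anxa4 and Anxa5 fell (3 of 10 members, against 5.81% of all genes) and no member rose, against 6.83%. With the block added, 7 members fell, all of the 8 except Anxa6, against 14.1% of all genes, and none rose, against 17.2%. The log2 fold changes on that scale ran from -1.50 for S100a4 through -0.028 for Anxa6 to 0.13 for Dysf, the only member whose sign turned.

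Anxa1 binds formyl peptide receptors outside the cell and torn membrane inside it. It was at 36.8, 16.2 and 34.6 TPM in LrpprcWT replicates 1 to 3 and at 11.9, 5.99 and 9.87 TPM in LrpprcP27A replicates 1 to 3. Every LrpprcP27A library was below the lowest LrpprcWT library, and the mean of 9.25 ± 3.00 TPM (SD, n = 3) was 31.7% of the LrpprcWT mean of 29.2 ± 11.3 TPM (SD, n = 3). The log2 fold change was -1.52 (SE 0.32, 95% interval -2.25 to -0.79, limma adjusted p = 0.0212). After median-of-ratios scaling it was -1.13 (limma adjusted p = 0.0383).

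Anxa2, the partner of S100a10, links membranes to actin and serves at the cell surface in plasmin formation. Its level was 56.8, 24.2 and 56.5 TPM with LrpprcWT and 22.7, 12.1 and 17.7 TPM with LrpprcP27A. LrpprcWT replicate 2 stood only a little above LrpprcP27A replicate 1, while the other LrpprcWT libraries were far above. The log2 fold change was -1.28 (SE 0.33, limma adjusted p = 0.0310), and after median-of-ratios scaling -0.88, no longer past the threshold (limma adjusted p = 0.0701).

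Anxa4, an annexin that can self-assemble on membranes, was the least abundant member in both groups. It was at 11.5, 6.78 and 12.7 TPM with LrpprcWT and at 4.81, 2.92 and 4.12 TPM with LrpprcP27A, so the groups did not overlap. It fell by 1.17 on the log2 scale (SE 0.24, limma adjusted p = 0.0191), and by 0.81 after median-of-ratios scaling (limma adjusted p = 0.0322).

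Anxa5, which forms ordered arrays at the edge of a membrane tear and is widely used as a stain for exposed phosphatidylserine, was at 100.8, 57.6 and 96.5 TPM with LrpprcWT. With LrpprcP27A it was at 43.1, 29.8 and 35.5 TPM, all below the lowest LrpprcWT library, and the mean was 42.5% of that with LrpprcWT. Among the members it had the smallest adjusted p, with a log2 fold change of -1.18 (SE 0.22, limma adjusted p = 0.0167) on the deposited scale and -0.77 (limma adjusted p = 0.0304) after median-of-ratios scaling.

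Anxa6, a long annexin with a duplicated core that gathers at the repair cap of muscle fibres, was the most abundant member in both groups. It was at 187.5, 135.5 and 181.7 TPM with LrpprcWT and at 131.4, 118.2 and 116.3 TPM with LrpprcP27A. The gap between the lowest LrpprcWT library and the highest LrpprcP27A library was small, and the LrpprcP27A mean was 72.5% of the LrpprcWT mean. The log2 fold change was -0.45 (SE 0.14, 95% interval -0.76 to -0.13, limma adjusted p = 0.0473). After median-of-ratios scaling it was -0.028 (limma adjusted p = 0.843), and the call of a fall was lost in 13 of 16 alternative settings.

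Among the S100 members, S100a4, a binder of non-muscle myosin that is also known as fibroblast-specific protein, had the lowest fold change of the 10 members. It was at 102.9, 52.7 and 81.8 TPM with LrpprcWT and at 43.8, 10.9 and 15.2 TPM with LrpprcP27A. LrpprcP27A replicate 1 stood well above the other LrpprcP27A libraries, and the coefficient of variation there, 76.6%, was the highest of any member in either group. The LrpprcP27A mean was 29.4% of the LrpprcWT mean, and the log2 fold change was -1.91 (SE 0.44, 95% interval -2.92 to -0.91, limma adjusted p = 0.0251). After median-of-ratios scaling it was -1.50 (limma adjusted p = 0.0607).

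S100a6, or calcyclin, is tied to proliferating cells and fibroblasts. It was at 58.2, 49.3 and 90.6 TPM with LrpprcWT and at 50.2, 29.9 and 36.4 TPM with LrpprcP27A. LrpprcP27A replicate 1 lay just above LrpprcWT replicate 2, so the groups overlapped. The log2 fold change was -0.73 (SE 0.25, 95% interval -1.29 to -0.18, limma adjusted p = 0.0558). Within the 3 same-numbered pairs the log2 difference was -0.21, -0.70 and -1.29, and with the replicate block S100a6 fell (limma adjusted p = 0.000951), but not with the block and median-of-ratios scaling together (limma adjusted p = 0.256).

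S100a10, or p11, has lost calcium binding and holds Anxa2 at the membrane. It was at 66.4, 33.2 and 75.2 TPM with LrpprcWT and at 26.8, 16.3 and 27.5 TPM with LrpprcP27A. As for Anxa2, LrpprcWT replicate 2 was the library nearest the other group, and the LrpprcP27A mean was 40.4% of the LrpprcWT mean. The fold change was -1.23 on the log2 scale (SE 0.31, limma adjusted p = 0.0288), and -0.81 after median-of-ratios scaling (limma adjusted p = 0.0645).

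S100a11, the partner of Anxa1, was the most abundant S100 member. Its level was 151.9, 82.9 and 164.2 TPM with LrpprcWT and 70.0, 42.5 and 64.0 TPM with LrpprcP27A. The groups did not overlap, and the LrpprcP27A mean was 44.2% of the LrpprcWT mean. The log2 fold change was -1.13 (SE 0.27, limma adjusted p = 0.0266), and -0.71 after median-of-ratios scaling (limma adjusted p = 0.0610).

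Dysf was the steadiest member, at 27.9, 21.2 and 27.2 TPM with LrpprcWT and 20.8, 21.4 and 19.8 TPM with LrpprcP27A. LrpprcWT replicate 2 lay within the LrpprcP27A range, so the groups overlapped, and the LrpprcP27A libraries differed from each other by a coefficient of variation of 3.84%. The log2 fold change was -0.28 (SE 0.13, 95% interval -0.58 to 0.027, limma adjusted p = 0.132), and 56.3% of all tested genes had a lower one. Its direction depended on the scale: after median-of-ratios scaling it was 0.13 (95% interval -0.069 to 0.33, limma adjusted p = 0.307) and after quantile normalization 0.037 (limma adjusted p = 0.772). Without LrpprcWT replicate 2 it was -0.40 and passed (limma adjusted p = 0.00952).

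**Figure D2:**
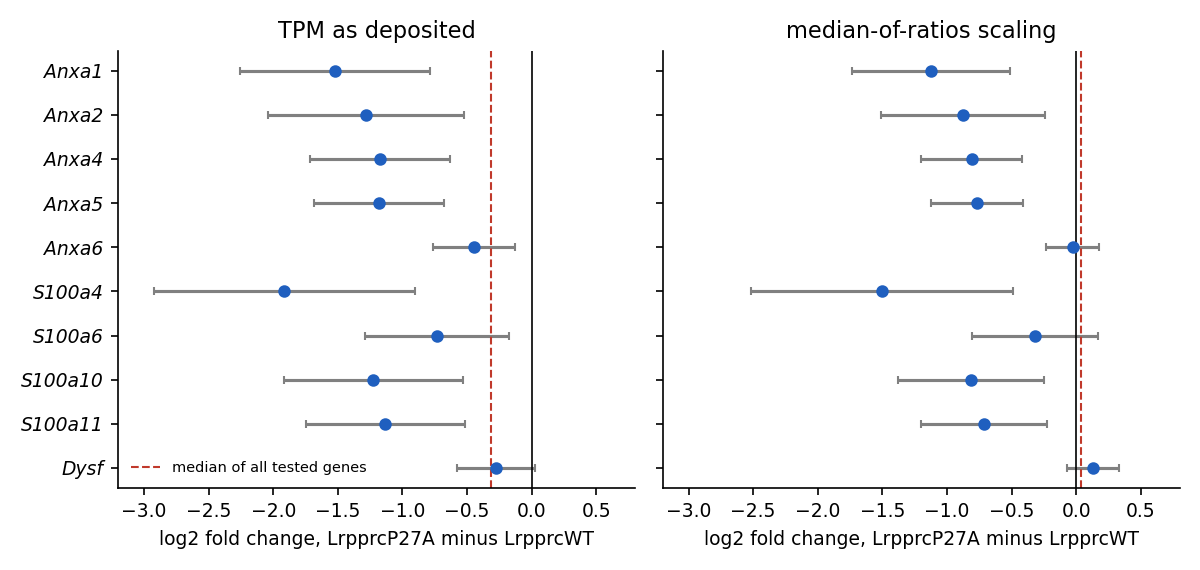
Log2 fold change of each member, LrpprcP27A relative to LrpprcWT, with its 95% interval, on the deposited TPM scale (left) and after median-of-ratios scaling (right), and a dashed line at the median of all tested genes. The 4 shorter annexins and all 4 S100 members lie below the dashed line on both scales, S100a6 the least far of these. Anxa6 lies slightly below the line and Dysf slightly above it on both scales.

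The calls of the fit without the replicate block rested on individual libraries. Libraries were left out only in that unpaired fit, so a muscle there stood without its contralateral partner. The paired fit was not run with libraries left out. Without LrpprcWT replicate 1 or LrpprcWT replicate 3, 0 members passed limma's adjusted p, and of all genes 2.51% and 0.129% fell. At an unadjusted p under 0.05, limma had 9 and 8 members lower there, against 28.5% and 27.6% of all genes. Without LrpprcWT replicate 2 all 10 members fell, against 59.5% of all genes. Without LrpprcP27A replicate 1 there were 8 members, against 14.5%, and without replicate 2 or replicate 3 of that group 3 each, against 4.34% and 3.79%. The share of members that fell was also read against all genes under the other settings. It was 8 of 10 with a pseudocount of 0.1 (23.8% of all genes), 7 with a minimum mean of 5 TPM (22.0%), 7 without the trend in limma (22.6%), 2 after rescaling without mitochondrial and ribosomal RNA (5.71%) and 3 after quantile normalization (4.46%). Without a filter on low values it was 0 in limma (0.196% of all genes), and at an unadjusted p under 0.05 it was 9 (31.1%). With the Kruskal-Wallis test it was 0 (0.0%), and at an unadjusted p under 0.05 it was 8 (47.6%). In the same-numbered pairs, LrpprcP27A was below LrpprcWT in 29 of 30 comparisons of a member, the exception being Dysf in pair 2 with a log2 difference of 0.017.

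The order of the levels differed little at the top and more below. With LrpprcWT the order of the mean TPM was Anxa6, S100a11, Anxa5, S100a4, S100a6, S100a10, Anxa2, Anxa1, Dysf and Anxa4, and only the last neighbours, Dysf and Anxa4, had library ranges that did not overlap. With LrpprcP27A it was Anxa6, S100a11, S100a6, Anxa5, S100a10, S100a4, Dysf, Anxa2, Anxa1 and Anxa4. There, the ranges of Anxa6 and S100a11, of Anxa5 and S100a10, of Anxa2 and Anxa1, and of Anxa1 and Anxa4 did not overlap, and those of the other neighbours did. S100a4 stood lower in this order than with LrpprcWT, and Dysf stood higher.

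The share of Anxa6 in the TPM of the 5 annexins was 47.7%, 56.4% and 47.6% with LrpprcWT and 61.4%, 70.0% and 63.4% with LrpprcP27A, with no overlap. S100a4 made up 27.1%, 24.2% and 19.9% of the TPM of the 4 S100 members with LrpprcWT and 22.9%, 10.9% and 10.6% with LrpprcP27A, where replicate 1 fell within the LrpprcWT range. Dysf made up 3.48%, 4.41% and 3.31% of the TPM of all 10 members with LrpprcWT and 4.89%, 7.38% and 5.72% with LrpprcP27A. These shares are taken within a library, and the scaling between libraries does not enter them.

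Ratios between members within a library were compared for 6 pairs with an exact permutation test, two-sided, for which 3 muscles against 3 cannot give a p below 0.1. Anxa2 and its partner S100a10 kept close to one ratio. The log2 ratio of Anxa2 to S100a10 was -0.36 ± 0.12 (SD, n = 3) with LrpprcWT and -0.44 ± 0.20 (SD, n = 3) with LrpprcP27A, a difference of -0.073 that was smaller than the spread between muscles (exact p = 0.6, adjusted over the 6 ratios 0.6). There were 0.728–0.856 Anxa2 transcripts to each S100a10 transcript with LrpprcWT and 0.642–0.848 with LrpprcP27A.

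The ratio of Anxa1 to its partner S100a11 was lower with LrpprcP27A in every library, at a log2 ratio of -2.22 ± 0.16 (SD, n = 3) against -2.69 ± 0.13 (SD, n = 3), a difference of -0.48 (exact p = 0.1, adjusted 0.12). The other ratios set members against Anxa6 and Dysf. The log2 ratio of Anxa2 to Anxa6 differed by -0.88, and that of the summed S100 members to Dysf by -0.93, both with no overlap between the groups (exact p = 0.1, adjusted 0.12 for each). The log2 ratio of Anxa2 to Dysf was 1.03, 0.19 and 1.05 with LrpprcWT and 0.13, -0.83 and -0.17 with LrpprcP27A. There were thus 1.14–2.08 Anxa2 transcripts to each Dysf transcript with LrpprcWT and 0.564–1.09 with LrpprcP27A (exact p = 0.1, adjusted 0.12). The ratio of Anxa6 to Dysf differed least of these 5, by -0.16 on the log2 scale, with 6.40–6.72 against 5.52–6.32 Anxa6 transcripts to each Dysf transcript (exact p = 0.1, adjusted 0.12).

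**Figure D3:**
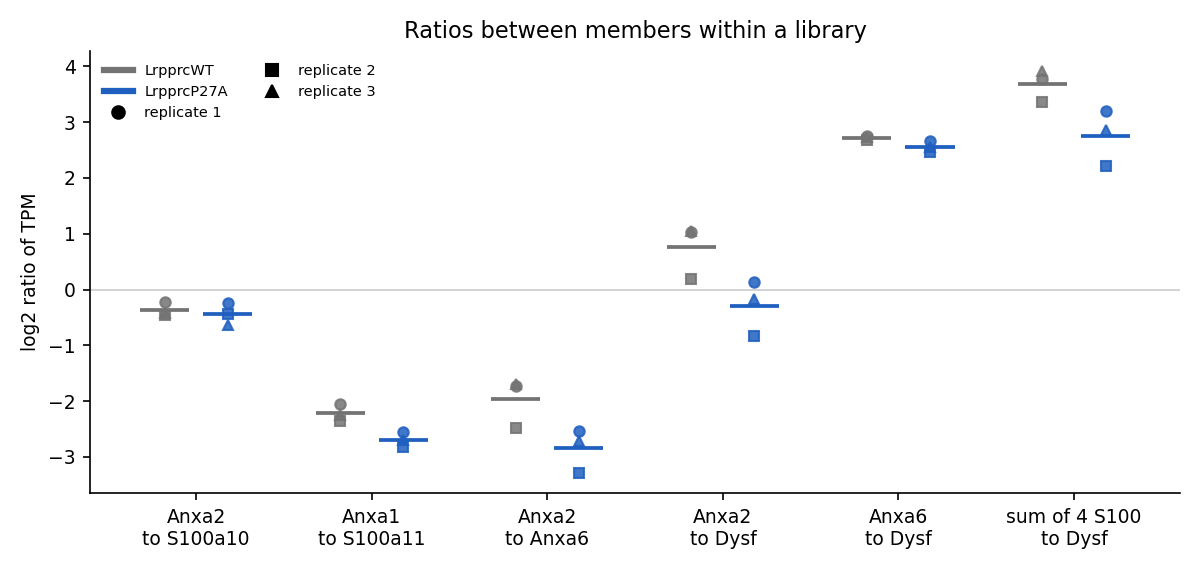
Log2 ratio of 2 members (or of the summed S100 members to Dysf) in each library, with LrpprcWT in grey, LrpprcP27A in blue, a circle, square or triangle for replicate 1, 2 or 3, and a bar at the mean. Only for Anxa2 to S100a10 do the groups overlap.

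The rest of both families was taken from a list of 19 annexin and S100 genes. Of these, 9 had a mean of at least 1 TPM, and 4 of these fell (Anxa8, S100a1, S100a13 and S100a16), against 23.3% of all genes, none rose, and their median log2 fold change was -0.54, against -0.32. At an unadjusted p under 0.05, limma had 7 lower, against 44.2% of all genes, and 0 higher. Anxa8, an annexin of epithelia and endothelia, fell by 1.28 on the log2 scale (limma adjusted p = 0.0348) at low levels, 4.94, 1.48 and 1.63 TPM against 0.908, 0.054 and 0.352 TPM. Its mean was 2.68 TPM with LrpprcWT and 0.438 TPM with LrpprcP27A. It thus passed the filter of 1 TPM only through the group where it was high, and its fall adds no support to the count. With a minimum mean of 5 TPM, which leaves Anxa8 out, 3 of 8 fell, against 22.0% of all genes. With the replicate block 8 of the 9 fell in limma, against 48.4% of all genes, and after median-of-ratios scaling 0 did, against 5.81% (at an unadjusted p under 0.05, 3 lower, against 15.1%).

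Most of the S100 genes, but not all, form a row on chromosome 3 that holds the S100 members and is interrupted by 2811311 bp between S100a9 and S100a11. Next to S100a4, its neighbours S100a3 and S100a5 were all but silent, at no more than 0.129 and 0.118 TPM in any library. S100a1, a calcium sensor of muscle fibres, was at 179.6–224.0 TPM with LrpprcWT and 130.6–170.8 TPM with LrpprcP27A, the highest level of the row, and fell by 0.46 on the log2 scale (limma adjusted p = 0.0405). S100a13 fell by 0.89 (limma adjusted p = 0.0231) and S100a16 by 0.72 (limma adjusted p = 0.0205). S100a8 and S100a9, the calprotectin genes of neutrophils and monocytes, had log2 fold changes of -0.40 (limma adjusted p = 0.271) and -0.55 (limma adjusted p = 0.0581). After median-of-ratios scaling S100a1 was at -0.034 (limma adjusted p = 0.855). These S100 genes were named for their place beside the members.

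**Figure D4:**
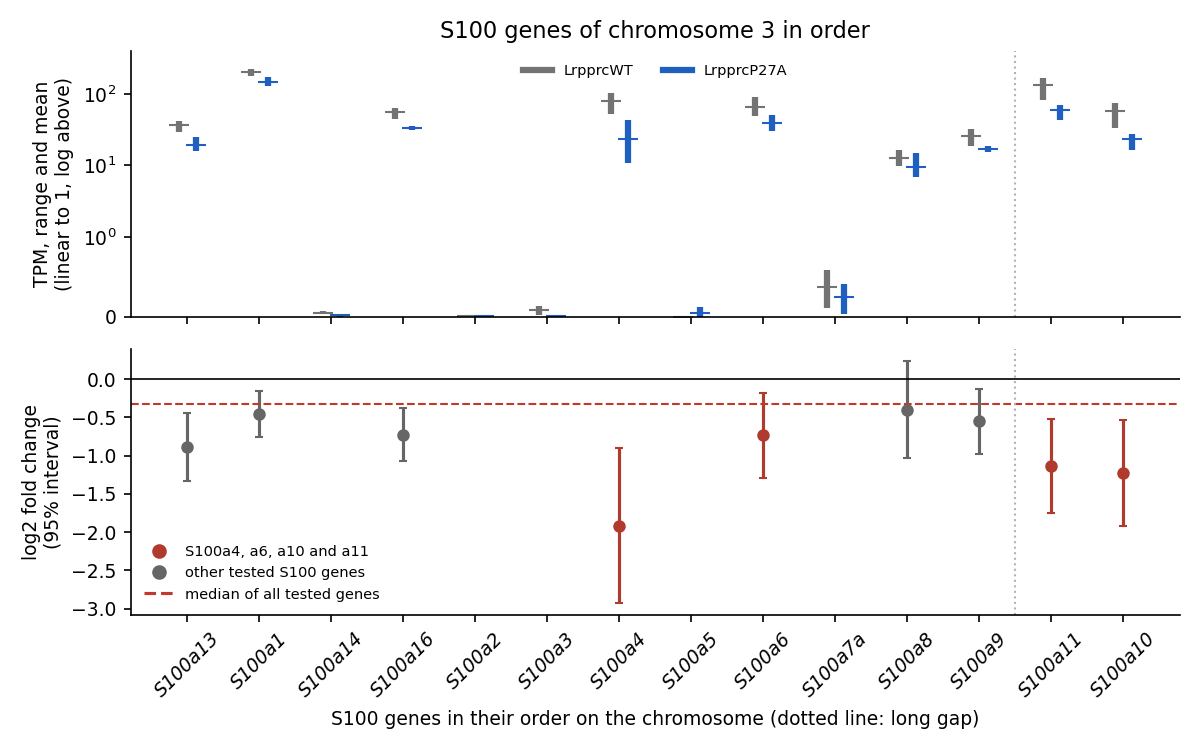
Top, range (vertical bar) and mean (horizontal line) of the TPM of the S100 genes in their order along chromosome 3, on an axis that is linear to 1 TPM and logarithmic above, with LrpprcWT in grey and LrpprcP27A in blue, and bottom, the log2 fold change of the tested ones with its 95% interval, the members in red. S100a4 has the lowest fold change of the row, at -1.91, and its neighbours S100a3 and S100a5 are near 0 TPM.

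Partners of dysferlin and the annexins in membrane repair form another list. Of 25 such genes, 22 passed the filter of 1 TPM, 11 fell, against 23.3% of all genes, and none rose. Their median log2 fold change was -0.47, against -0.32 over all genes, and at an unadjusted p under 0.05 limma had 15 lower, against 44.2% of all genes, and 0 higher. Trim72 (MG53), which nucleates the repair patch, was at 203.0, 156.3 and 238.3 TPM with LrpprcWT and 133.5, 111.3 and 115.2 TPM with LrpprcP27A, and it fell by 0.71 on the log2 scale (limma adjusted p = 0.0240). Cav3, the muscle caveolin, fell by 0.69 (limma adjusted p = 0.0231). Ahnak2, a giant scaffold protein, fell by 1.38 (limma adjusted p = 0.0252), from 6.95, 2.69 and 5.90 TPM to 2.20, 0.678 and 1.14 TPM. Myof, a dysferlin relative of growing myoblasts and endothelium, fell by 0.71 (limma adjusted p = 0.0495).

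Ahnak, a scaffold that binds dysferlin and the Anxa2-S100a10 complex, had a log2 fold change of -0.52 (limma adjusted p = 0.133). Ano5, a scramblase whose loss also causes limb-girdle dystrophy, had -0.25 (limma adjusted p = 0.185). Capn3, a protease of the muscle fibre, was the one gene of the list with a positive value, at 62.4, 57.9 and 59.9 TPM with LrpprcWT and 62.7, 67.0 and 63.8 TPM with LrpprcP27A, and did not pass (log2 fold change 0.10, limma adjusted p = 0.409). After median-of-ratios scaling Capn3 rose (log2 fold change 0.52, limma adjusted p = 0.0355), Ahnak2 was the only gene of the list to fall (-1.08, limma adjusted p = 0.0474), and Trim72 was at -0.29 (limma adjusted p = 0.102). With the replicate block 17 of the 22 fell, against 48.4% of all genes.

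The fibroblast and macrophage markers were lower in the LrpprcP27A muscles, as the members were, and other marker lists were less uniform. In bulk muscle, fewer cells of a type and less RNA per cell cannot be told apart. The 8 fibroblast markers summed to 1011–1681 TPM with LrpprcWT and 271.2–596.2 TPM with LrpprcP27A, and 7 of 8 fell by the same test, against 23.3% of all genes. The macrophage markers summed to 120.7–272.2 TPM and 40.9–97.4 TPM, and all 7 tested fell. The remaining macrophage marker, Cd163, was below the filter, at 0.315, 0.581 and 0.480 TPM with LrpprcWT and higher, at 1.08, 0.821 and 1.67 TPM, with LrpprcP27A. Endothelial markers summed to 164.2–297.9 TPM and 122.1–168.0 TPM (2 of 6 fell), tendon markers to 93.3–165.6 TPM and 41.9–116.8 TPM (1 of 4), satellite cell markers to 16.5–20.1 TPM and 13.2–14.1 TPM (2 of 4), and Schwann cell markers to 19.4–38.8 TPM and 17.5–36.3 TPM (0 of 3). The smooth muscle list (Myh11, Acta2, Tagln, Cnn1 and Des) summed to 1772–2333 TPM and 1660–1731 TPM. Of its 5 genes 0 fell, and 2 had a log2 fold change above 0. After median-of-ratios scaling 5 of 8 fibroblast, 2 of 7 macrophage and 0 of 6 endothelial markers fell, against 5.81% of all genes. With the replicate block alone these were 8 of 8, 7 of 7 and 6 of 6, against 48.4%. With block and median-of-ratios scaling together they were 5 of 8, 6 of 7 and 3 of 6, against 14.1%.

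The epithelial list was at 46.6–87.5 TPM with LrpprcWT and 0.548–4.32 TPM with LrpprcP27A, and both of its tested genes, Krt8 and Krt18, fell. Its other genes, Krt19, Epcam and Cdh1, were below the filter of 1 TPM. Without the filter the median log2 fold change of all 5 was -0.082, against -0.16 over all genes. Neutrophil markers summed to 6.56–8.57 TPM and 3.13–7.70 TPM, neither of the 2 tested passed, and the granule genes Mpo and Elane were at 0 in every library. The part of these cell types in the lower annexin and S100 levels was not tested.

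**Figure D5:**
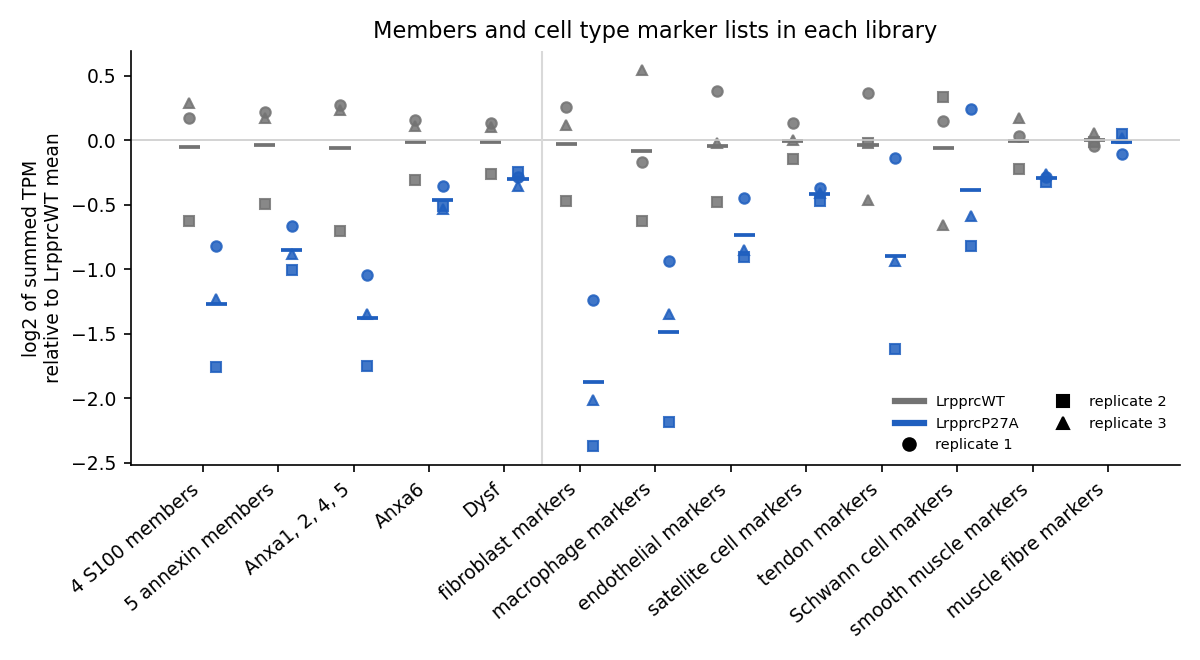
Summed TPM of the members and of the marker lists in each library, as log2 relative to the LrpprcWT mean, with LrpprcWT in grey, LrpprcP27A in blue, a circle, square or triangle for replicate 1, 2 or 3, and a bar at the mean (the neutrophil and epithelial lists are not drawn). The sums of the fibroblast, macrophage, satellite cell and smooth muscle lists are apart between the groups, as are the annexin and S100 sums. Of the 5 smooth muscle genes, which include Des, 0 fell. The endothelial, tendon, Schwann cell and muscle fibre lists and Dysf overlap.

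The likeness of profiles was measured over the 6 libraries as the root-mean-square distance between values of log2(TPM + 1), each centred on its gene's own mean. The mean profile of the 9 annexin and S100 members contains each of these members, which draws it toward them. Of the members, Anxa4 (0.075), S100a11 (0.078) and Anxa5 (0.088) were the nearest to it, followed by Anxa2 (0.134), S100a10 (0.147) and Anxa1 (0.205). S100a6 (0.297), Anxa6 (0.432), S100a4 (0.535) and Dysf (0.536) lay farther out, and Anxa6 was at 0.106 from Dysf. Outside the members, the 5 genes nearest that mean profile were Ddah2 (0.032), Tmem254 (0.049), Meox1 (0.053), Cotl1 (0.063) and Cks1b (0.069). All 5 were nearer than any member, but they were picked as the nearest of all tested genes, so this follows largely from the picking. The median over all genes tested was 0.529. Nearest to Dysf were Fbxo38 (0.012), Rnf185 (0.015), Ints13 (0.022), Yipf1 (0.023) and Nod1 (0.023), against a median of 0.171.

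Some reads may not belong to the named gene. Genes that overlap a member in the annotation, such as 1810062G17Rik on the opposite strand of Anxa5, were at no more than 0.566 TPM where the table lists them, but the use of strand in counting is not given in the sources used here. S100a11 has a processed pseudogene, S100a11-ps, that the table does not list, so its value may include reads of that copy.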

How the data were processed

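RNA of 6 muscles was sequenced on an Illumina instrument after TruSeq RNA v2 preparation. Per the study's methods, the authors trimmed and mapped the reads with CLC Genomics Workbench, and they deposited TPM values per gene. The labels name the build GRCm39. TPM sums to 1000000 in every library, so the depth behind a value is unknown, and the number of muscles sets the precision.

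A linear model with a trended empirical Bayes step (limma 3.58.1, R 4.3.3) compared the 3 LrpprcP27A with the 3 LrpprcWT muscles on log2(TPM + 1). It covered the 11611 genes with a mean of at least 1 TPM, with Benjamini-Hochberg adjustment over all of them. Fold changes on this scale understate those of low genes. The study used a Kruskal-Wallis test, which was run as an alternative. Ratios were tested with exact permutations that ignored the pairing (scipy 1.17.1), and with sign flips within the muscle pairs.

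The muscles are contralateral and share replicate numbers, so a fit with the replicate block was read as paired. Deviations from the group means correlated at 0.363, 0.528 and 0.356 within the same-numbered pairs, and at -0.362 to 0.004 otherwise. The deviations of a group cancel out for each gene, so positive values within pairs lower the others. That contrast is therefore partly built in. Other alternatives were another pseudocount, other filters, no trend, median-of-ratios scaling, rescaling without mitochondrial and ribosomal RNA, quantile normalization and leaving out each library.

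Members and lists were chosen with earlier results of these data known. Besides the members, genes were named if they passed the test with a log2 fold change of at least 1 in size (at most 5 per list and direction), or as best-known partners (Trim72, Cav3, Capn3, Ahnak, Myof, Ano5). Of 25 repair genes 24 were found in the table. Gene positions came from GENCODE M39, and promoters from the GRCm39 genome at its canonical starts.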

Additional observations from a re-analysis of the deposited data

How the results depend on the processing

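The counts of fallen genes depended on the scaling, the filter and single libraries. Without a filter on low values limma had 0 members lower (9 at an unadjusted p under 0.05, against 31.1% of all genes), 0 of the other annexin and S100 genes and 0 repair partners, and of all genes 42 lower and 9 higher. The Kruskal-Wallis test, whose smallest p cannot pass the adjustment with 3 against 3, gave 0 in every list and direction, with 8 members lower at an unadjusted p under 0.05, against 47.6% of all genes. With a minimum mean of 5 TPM, 1560 of all genes were lower, since fewer were tested, against 2705 lower and 156 higher at 1 TPM.

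Under median-of-ratios scaling 3 members, 0 other family genes and 1 repair partner were lower, 1 partner was higher, and all genes split into 675 lower and 793 higher. Rescaling without mitochondrial and ribosomal RNA gave 2 members, 0, 0 and 662 genes lower. Quantile normalization gave 3 members, 1 family gene and 1 partner lower, 1 partner higher, and 518 genes lower and 493 higher. Dysf changed sign to 0.13 under median-of-ratios scaling, with or without the block, and to 0.037 under quantile normalization.

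With the replicate block 8 family genes, 17 partners and 5619 genes were lower and 312 higher. With block and median-of-ratios scaling together, 2 family genes and 4 partners were lower, 2 partners higher, and 1636 genes lower and 1995 higher. The block alone changed no member's call but that of S100a6.

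For these counts, libraries were left out only in the fit without the block. Leaving out 1 library there gave 0 to 10 members lower, 0 to 7 family genes and 0 to 18 partners. Of all genes, 15 to 6913 were lower and 3 to 304 higher. The lowest counts came without LrpprcWT replicate 3 and the highest without LrpprcWT replicate 2. Where a library was left out, its group kept 2, and fewer samples were tested. Of 160 member values under 16 alternatives, 91 kept direction and side of the threshold, 62 lost the call, 4 gained one and 3 changed sign. The ratio differences moved by less than the spread between muscles in every setting run, although that of Anxa2 to S100a10 was 0.028 without LrpprcP27A replicate 3.

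Except where stated, the cause of a change was not tested. With TPM alone, depth cannot be weighed, and 3 muscles a group limit the precision.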
